A study of Mus musculus with 4 samples.

Results

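The 10 genes described here encode 6 peroxiredoxins (Prdx1 to Prdx6) and 4 further antioxidant enzymes: the superoxide dismutases Sod1 and Sod2, catalase (Cat) and the glutathione peroxidase Gpx4. They were chosen by name out of 21853 mouse protein-coding genes with an annotated start, with earlier results on these peaks known, so which of their promoters carry peaks is given as a description without a test. The samples were organoids, three-dimensional cultures of epithelium, labelled as clone 3 at passage 14 and grown from a mouse colorectal tumour induced with the carcinogen azoxymethane (AOM) and the colitis-inducing agent dextran sulfate sodium (DSS). Both vehicle and 1 µM tamoxifen appear in the treatment label, which does not say what these libraries received, and the genotype label reads NA. ChIP-seq was done with 1 library each for KMT9alpha, KMT9beta and H4K12me1, and an input library without antibody is not analysed here. All libraries share the same clone and passage, so there is no group to compare with and no replicate check for any value.

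KMT9alpha (encoded by N6amt1) binds the small partner protein KMT9beta (encoded by Trmt112), and the dimer methylates lysine 12 of histone H4 once, which gives H4K12me1. Peroxiredoxins reduce hydrogen peroxide and organic peroxides through a reactive cysteine that thioredoxin or another thiol then regenerates. Superoxide dismutases turn superoxide into hydrogen peroxide, which catalase and peroxidases remove, and Gpx4 reduces lipid peroxides in membranes and thereby holds back the iron-dependent cell death called ferroptosis. In the gut epithelium these enzymes meet peroxide from respiration and from inflammation.

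The peak lists held 26146, 90349 and 60289 peaks on the assembled chromosomes for KMT9alpha, KMT9beta and H4K12me1. Each peak carries a score given by the authors, which is used only within its own list, and 4861 KMT9alpha peaks sit at exactly 3100, near the top of that scale. The depth of the libraries is unknown, and a promoter without a called peak may hold signal under the calling threshold. A promoter was the stretch within 1 kb of any annotated start of a coding transcript of the gene, and a peak sharing 1 bp or more with it counted. Of 6 epithelial marker genes 5 carried promoter peaks of all 3 libraries (Epcam, Cdh1, Krt8, Krt18 and Vil1, with Krt20 carrying none). None of 4 immune marker genes did, and 1 of 4 fibroblast markers (Pdgfra) and 0 of 2 endothelial markers did. Peaks at a marker do not measure its expression.

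Promoter stretches are shown first, for all members except Prdx2, Prdx5 and Prdx6. Peaks described below are placed by distance from the nearest annotated coding start, which is not always the start behind a printed stretch. RefSeq promoter windows (build GRCm38.p6, the assembly behind mm10, from 250 bases before to 50 after a start) were found for 9 of the 10 genes; Prdx6 had no entry. The stretches printed run 5′ to 3′ on the strand of the gene, before a start, and overlap no annotated exon; Sod2, Prdx4 and Gpx4 also have starts further upstream. Capitals mark the antioxidant response element core TGACNNNGC, the GC box GGGCGG, the E-box CACGTG and the CCAAT box, each searched on both strands with overlapping matches counted separately; the NRF1 motif was searched too. The first group had peaks of all 3 libraries over the whole printed stretch: Prdx1 (chr4:116685349-116685543, plus strand), Prdx3 (chr19:60874557-60874788, minus strand), Sod1 (chr16:90220512-90220753, plus strand) and Gpx4 (chr10:80053315-80053487, plus strand).
Prdx1: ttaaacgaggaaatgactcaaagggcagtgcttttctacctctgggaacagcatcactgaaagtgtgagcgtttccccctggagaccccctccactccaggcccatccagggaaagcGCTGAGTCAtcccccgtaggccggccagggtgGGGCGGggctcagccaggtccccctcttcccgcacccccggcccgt
Prdx3: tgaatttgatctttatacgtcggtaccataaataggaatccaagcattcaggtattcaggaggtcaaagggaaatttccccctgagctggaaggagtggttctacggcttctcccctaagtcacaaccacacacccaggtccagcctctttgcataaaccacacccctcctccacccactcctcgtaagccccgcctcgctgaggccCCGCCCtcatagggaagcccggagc
Sod1: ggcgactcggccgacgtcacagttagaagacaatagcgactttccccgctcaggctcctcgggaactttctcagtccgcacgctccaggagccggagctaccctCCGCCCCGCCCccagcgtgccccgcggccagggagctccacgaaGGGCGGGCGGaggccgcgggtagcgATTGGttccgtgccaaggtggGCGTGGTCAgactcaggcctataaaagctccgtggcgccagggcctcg
Gpx4: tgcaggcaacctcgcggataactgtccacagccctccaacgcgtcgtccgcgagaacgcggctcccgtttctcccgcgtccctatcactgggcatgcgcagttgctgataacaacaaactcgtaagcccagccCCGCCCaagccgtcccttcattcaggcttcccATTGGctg

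The second group had no H4K12me1 promoter peak. The stretches of Sod2 (chr17:13007589-13007816, plus strand) and Cat (chr2:103485161-103485403, minus strand) lay entirely inside the KMT9alpha and the KMT9beta peak, while that of Prdx4 (chrX:155338475-155338710, minus strand) lay in no peak, because the KMT9alpha peak of Prdx4 began at the start itself.
Sod2: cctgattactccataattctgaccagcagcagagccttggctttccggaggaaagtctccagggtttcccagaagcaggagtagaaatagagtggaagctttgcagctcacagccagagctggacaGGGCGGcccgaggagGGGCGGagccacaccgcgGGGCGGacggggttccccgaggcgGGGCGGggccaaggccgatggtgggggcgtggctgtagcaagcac
Cat: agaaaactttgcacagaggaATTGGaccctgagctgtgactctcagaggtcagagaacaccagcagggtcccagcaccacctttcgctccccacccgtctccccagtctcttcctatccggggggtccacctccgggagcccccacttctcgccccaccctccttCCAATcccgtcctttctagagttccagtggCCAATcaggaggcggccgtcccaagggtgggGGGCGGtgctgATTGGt
Prdx4: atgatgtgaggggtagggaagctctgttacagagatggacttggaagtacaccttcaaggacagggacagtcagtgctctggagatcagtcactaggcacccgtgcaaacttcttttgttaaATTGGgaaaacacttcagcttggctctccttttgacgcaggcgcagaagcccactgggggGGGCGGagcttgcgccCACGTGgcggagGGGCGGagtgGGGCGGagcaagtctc

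The GC box was found in all 9 windows of 300 bases, against 47.8% of 16515 protein-coding promoters of the same length. These 9 windows had a GC content of 57% (Prdx3, percentile 50.6 of all promoters) to 68.7% (Prdx2, percentile 85.2). No comparison with promoters of like GC content was made. The antioxidant response element core, the site read by the stress factor NRF2, was found in Prdx1 and Sod1, against 13.2% of all promoters. The CCAAT box was found in Prdx4, Sod1, Sod2 and Cat (38.7% of all promoters), the E-box in Prdx4 (8.05%) and the NRF1 motif in none of the 9 (1.37%). These are matches of letters and not measured binding sites. The CCAAT box was in the windows of the 3 genes with a window but no H4K12me1 promoter peak (Prdx4, Sod2 and Cat). It was in the windows of 1 of 6 with the mark (Sod1), although the Gpx4 stretch printed above, before another start, holds it too. The Sod2 match is not in the stretch printed above and reaches to or past the start at 13007817, so this contrast depends on where the window ends. The ratio of observed to expected CpG ranged from 0.389 at Cat through 0.69 at Sod2, 0.695 at Prdx1 and 0.748 at Prdx4 to 1.02 at Sod1. Cat, with the lowest ratio, had no H4K12me1 promoter peak, but Sod2 without the mark and Prdx1 with it had nearly the same ratio.

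KMT9alpha was called at the promoter of all 10 genes, KMT9beta at 9 and H4K12me1 at 6. The exact binomial 95% intervals, which cover counting over genes only, were 69.2% to 100% for KMT9alpha, 55.5% to 99.7% for KMT9beta and 26.2% to 87.8% for H4K12me1. The background over all protein-coding genes was 54.2% for KMT9alpha, 65.1% for KMT9beta and 44.9% for H4K12me1. Prdx1, Prdx2, Prdx3, Prdx5, Sod1 and Gpx4 carried all 3 (6 of 10, against 35.5% of all genes). Prdx6, Sod2 and Cat carried both subunits without H4K12me1, and Prdx4 carried KMT9alpha alone. Among members with both subunits the mark was called at 6 of 9 (66.7%), close to the 69.6% of all genes with both subunits. KMT9alpha promoter peaks are also more frequent at CpG-rich starts: they were found at 26.9%, 66.2%, 86.6% and 92.5% of genes in the second to the fifth class of 5 by CpG ratio, which held 1, 3, 4 and 1 of the members.

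**Figure D1:**
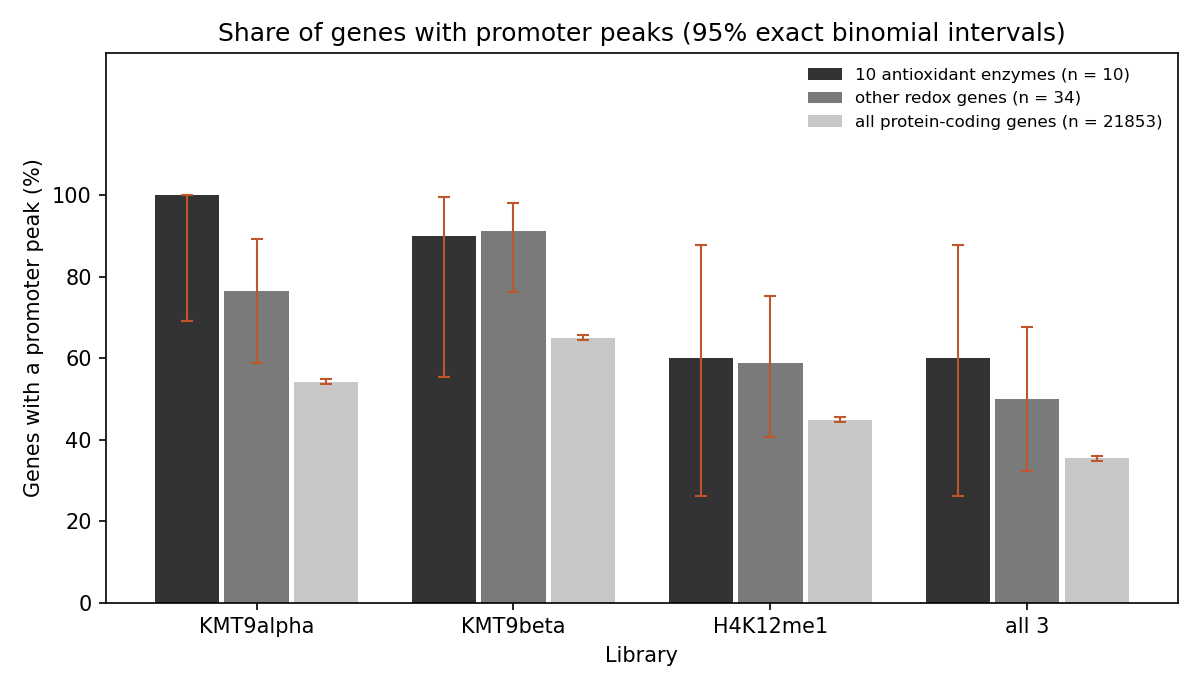
Share of genes (vertical axis, percent) with a promoter peak of each library and of all 3 (horizontal axis) for the 10 antioxidant enzymes, 34 other redox genes and all 21853 protein-coding genes, with exact binomial 95% intervals as error bars. The 10 genes reach 100% for KMT9alpha. Their intervals for KMT9beta (55.5% to 99.7%), for H4K12me1 (26.2% to 87.8%) and for all 3 (26.2% to 87.8%) include the values of all genes.

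Of the cytosolic peroxiredoxins, Prdx1 (chr4:116685544-116700822, plus strand), an abundant peroxide scavenger that also relays peroxide signals, carried all 3. Its KMT9alpha peak (116684947 to 116686256, 1310 bp) scored 3163.6 and its KMT9beta peak (116684970 to 116686250, 1281 bp) scored 246.88, and the midpoints of these peaks lay 9 bp apart. The KMT9beta peak lay wholly inside the KMT9alpha peak, and both covered 4 of the 5 coding starts. The H4K12me1 peak (116684923 to 116685636, 714 bp) scored 83.33, at percentile 55.0 of its list. By the highest promoter peak of each gene, it ranked lowest of the 6 members with the mark. It was shifted upstream: its midpoint lay 265 bp before the first start, while the midpoints of the subunit peaks lay within 11 bp of a start. The fifth start of Prdx1, at 116687312, had no peak of any library within 1 kb.

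Prdx2 (chr8:84969587-84974834, plus strand), which protects red cells and other cytosol from peroxide, starts head to head with Rnaseh2a, a subunit gene of ribonuclease H2, and with the predicted gene Gm49661. A start of Rnaseh2a falls on the same base as a start of Prdx2, and all 3 genes share the KMT9alpha and KMT9beta peaks and an H4K12me1 peak, so these peaks cannot be assigned to Prdx2 alone. KMT9alpha (84968722 to 84970608, 1887 bp) scored 3100 and KMT9beta (84969026 to 84971396, 2371 bp) scored 410.95, and both covered all 5 starts. H4K12me1 was split in 2: a peak of 590 bp over the starts (84969299 to 84969888) scored 75.82, and a peak of 672 bp over coding exons (84970874 to 84971545), with its midpoint 970 bp downstream of the last start, scored 111.57. The weaker of these peaks lay wholly inside the KMT9alpha peak, and the stronger one did not touch it.

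Prdx5 (chr19:6906697-6910106, minus strand), whose product works in mitochondria, peroxisomes and cytosol, overlaps Trmt112 at its 5′ end, so that the gene of the KMT9beta subunit and a peroxiredoxin gene share their promoter peaks. The closest starts of these genes lie 58 bp apart. KMT9alpha (6909003 to 6911624, 2622 bp) scored 3100 and is the widest KMT9alpha promoter peak of the 10 genes. KMT9beta formed the broadest coverage among the members: a peak of 6075 bp (6908988 to 6915062, score 750.74, width percentile 99.7 of its list) ran through Trmt112, and a second of 4559 bp (6904420 to 6908978, score 324.54) followed over the body of Prdx5 and past its end. H4K12me1 was called over the shared starts (6908938 to 6910924, 1987 bp, score 185.17) and, with a higher score of 209.24, over the 3′ part of the gene (6906924 to 6907935, 1012 bp). The peak over the starts overlapped KMT9alpha by 1922 bp.

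Prdx3 (chr19:60864051-60874556, minus strand), the peroxiredoxin of mitochondria, has 1 coding start, and all 3 peaks covered it. KMT9alpha (60873666 to 60874808, 1143 bp) scored 1587.43, KMT9beta (60873764 to 60874852, 1089 bp) scored 197.1 and H4K12me1 (60873435 to 60874792, 1358 bp) scored 106.48. The midpoints lay 319, 248 and 443 bp downstream of the start, and KMT9alpha and H4K12me1 shared 1127 bp. Prdx3 and Prdx5 lie on chromosome 19, where 72.3% of 715 genes had an H4K12me1 promoter peak against 46.1% of genes off chromosomes 19 and X. The part of the chromosome in these peaks was not tested.

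Prdx4 (chrX:155323918-155340754, minus strand), the peroxiredoxin of the endoplasmic reticulum, was the member with the fewest peaks. A single KMT9alpha peak of 607 bp (155337862 to 155338468) scored 957.78, the lowest KMT9alpha score and the narrowest KMT9alpha peak of the 10 genes. It extended from the start at 155338467 into the gene, and no peak of any library lay within 1 kb of the other annotated start at 155340754. The nearest KMT9beta peak was 513884 bp from a start and the nearest H4K12me1 peak 2771525 bp away. On chromosome X as a whole, promoter peaks were found at 30.5% of 948 genes for KMT9alpha, 6.75% for KMT9beta and 0.422% for H4K12me1, so the chromosome and the gene cannot be told apart here.

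Prdx6 (chr1:161240112-161251219, minus strand), a peroxiredoxin that also has phospholipase activity, carried both subunits at its starts. KMT9alpha (161249997 to 161251438, 1442 bp) scored 2989.57, and KMT9beta (161250518 to 161251600, 1083 bp) scored 119.57, the lowest KMT9beta promoter score of the 9 genes that had one. The shared stretch was 921 bp, with the KMT9alpha midpoint 449 bp and the KMT9beta midpoint 107 bp downstream of the same start. The nearest H4K12me1 peak lay outside the gene, 5466 bp from the starts, with a score of 73.6.

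**Figure D2:**
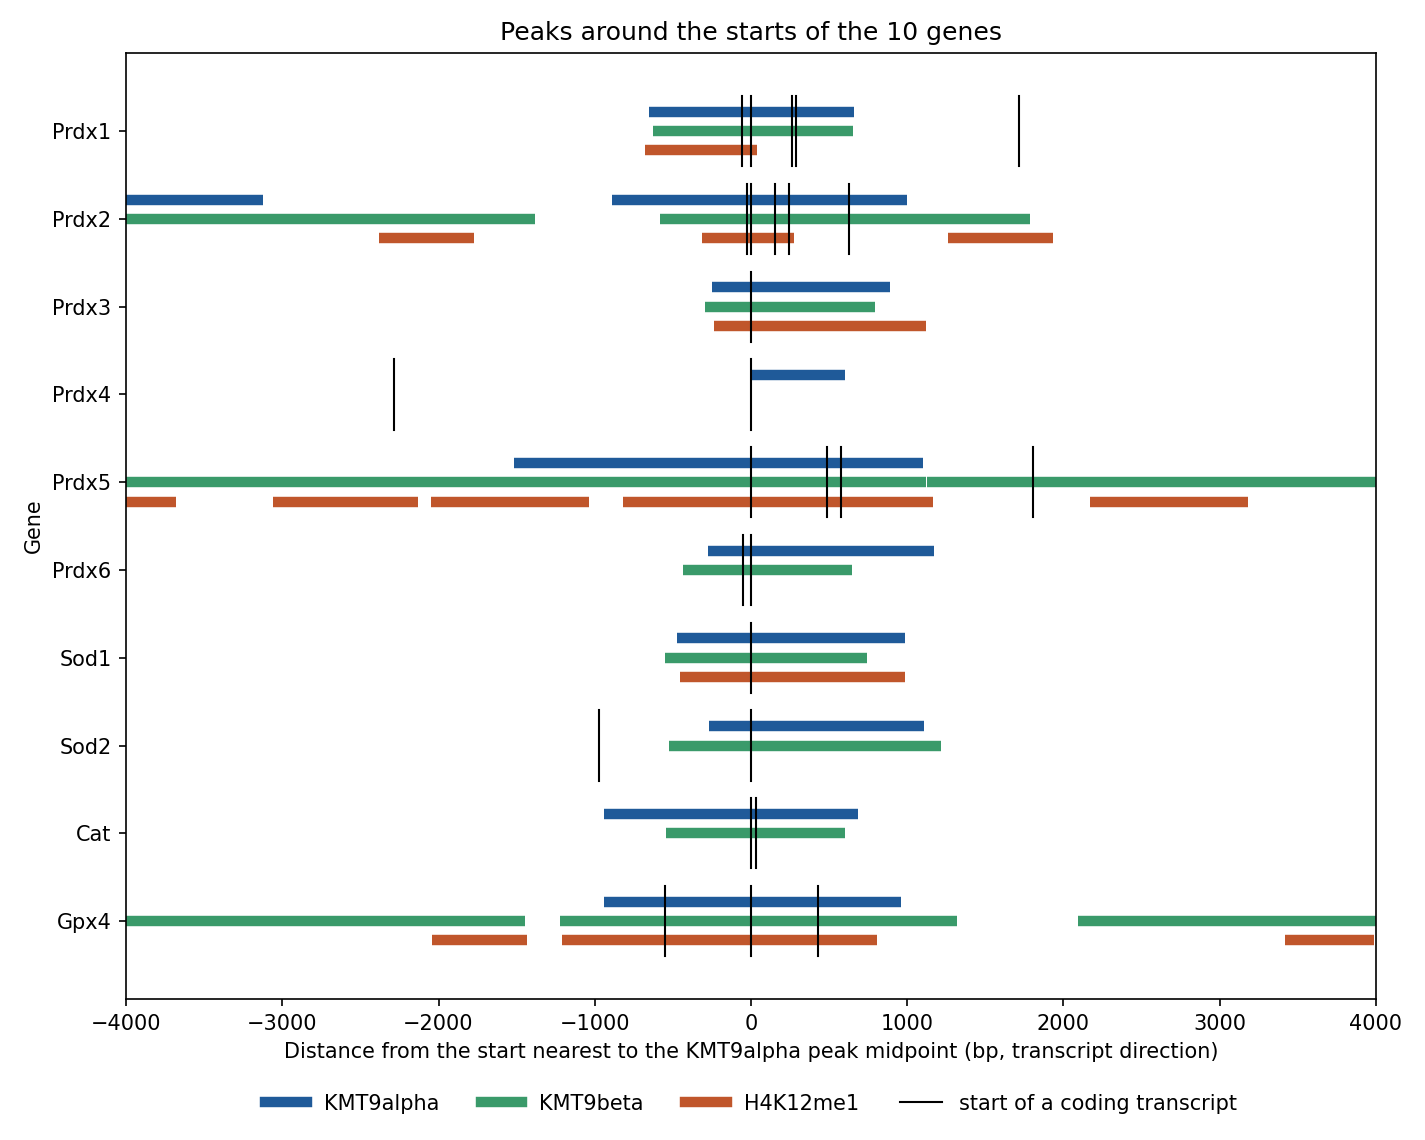
Peaks of KMT9alpha, KMT9beta and H4K12me1 (coloured bars) around the coding starts (black lines) of the 10 genes (rows), against the distance in bp from the start nearest to the KMT9alpha midpoint, read in transcript direction. KMT9alpha is present in every row, H4K12me1 is missing over the starts of Prdx4, Prdx6, Sod2 and Cat, and KMT9beta reaches across nearly the whole Prdx5 window.

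The superoxide dismutases differed in the mark. Sod1 (chr16:90220754-90226329, plus strand), the cytosolic copper and zinc enzyme, had 3 peaks of nearly equal extent over its 1 start. KMT9alpha (90220279 to 90221739, 1461 bp) scored 3100, KMT9beta (90220204 to 90221499, 1296 bp) scored 246.46 and H4K12me1 (90220303 to 90221737, 1435 bp) scored 232.18, at percentile 95.9 of its list. The H4K12me1 peak lay wholly inside the KMT9alpha peak with midpoints 11 bp apart. Sod2 (chr17:13006846-13040063, plus strand), the manganese enzyme of mitochondria, had a nearly equal KMT9beta score of 241.8 (13007291 to 13009033, 1743 bp) and a KMT9alpha score of 2047.24 (13007549 to 13008926, 1378 bp). Both Sod2 peaks covered the start at 13007817 and not the one 971 bp upstream. The H4K12me1 peak nearest to a start of Sod2 was 14557 bp away with a score of 81.37, so of these neighbours in KMT9beta score Sod1 had a called H4K12me1 promoter peak and Sod2 had none.

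Cat (chr2:103453849-103485160, minus strand), which splits hydrogen peroxide in peroxisomes, had a KMT9alpha peak of 1628 bp (103484472 to 103486099, score 1989.08) with its midpoint 125 bp upstream of the first start. The KMT9beta peak (103484556 to 103485702, 1147 bp, score 164.39) lay wholly inside it, 4 bp from a start by its midpoint. No H4K12me1 peak was called nearer than 23818 bp to a start. Gpx4 stood at the other end for the mark. This gene (chr10:80047166-80056439, plus strand) had the highest H4K12me1 promoter score of the 10 genes, 334.37 (80052827 to 80054845, 2019 bp, percentile 98.5), with KMT9alpha at 3100 (80053096 to 80054997, 1902 bp) and KMT9beta at 519.95 (80052812 to 80055356, 2545 bp). Each of these peaks covered all 3 coding starts. Weaker peaks of KMT9beta (291.3) and H4K12me1 (76.06) reached into the promoter window from upstream without covering a start.

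**Figure D3:**
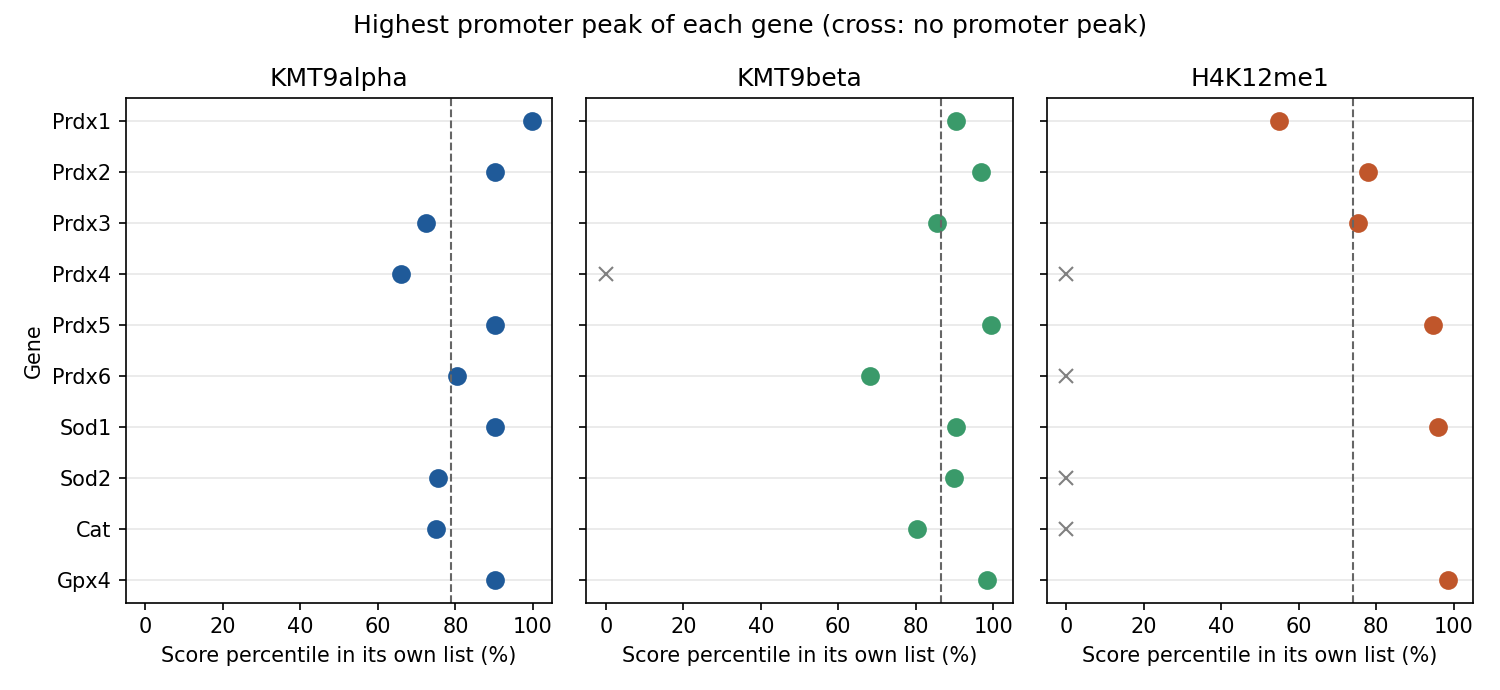
Percentile of the highest promoter peak of each gene by score within its own list (horizontal axis, percent) for KMT9alpha, KMT9beta and H4K12me1; crosses mark genes without a promoter peak, and dashed lines give the median of all genes with one. Prdx5 is highest for KMT9beta and Gpx4 for H4K12me1. For KMT9alpha, Prdx2, Prdx5, Sod1 and Gpx4 are tied at a score of 3100, where no order can be read, and Prdx1 lies above them.

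Across the 10 genes KMT9alpha scores ran from 957.78 (Prdx4) to 3163.6 (Prdx1) with a median of 3044.78, against a median of 2647.02 over all 11854 genes with a KMT9alpha promoter peak. A score of 3100 or more was reached by 5 of 10 (Prdx1, Prdx2, Prdx5, Sod1 and Gpx4), and by 45.6% of those genes. KMT9beta scores of the 9 genes ran from 119.57 (Prdx6) to 750.74 (Prdx5) with a median of 246.46, against 206.49 over all 14219 genes with a KMT9beta promoter peak. H4K12me1 scores of the 6 genes, taking the highest promoter peak of each, ran from 83.33 (Prdx1) to 334.37 (Gpx4) with a median of 160.4, against 104.12 over 9820 genes. The order of Prdx2, Prdx5, Sod1 and Gpx4 by KMT9alpha cannot be read, since all of them sit at 3100, a value shared by 4861 peaks. That value is exceeded by 150 peaks, among them that of Prdx1, and the definition of the score is not given. The order of the genes differed between the lists: Prdx1, among the 5 genes at 3100 or more for KMT9alpha, was last of 6 by H4K12me1.

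KMT9alpha promoter peaks of the members were 607 to 2622 bp wide (median 1451.5 bp, against 1357 bp for all genes). Their midpoints lay 2 to 449 bp from the nearest start, downstream of it at 8 of 10 genes, against 67.9% of all genes with such a peak. KMT9alpha and KMT9beta promoter peaks overlapped at all 9 genes that had both, by 921 to 2622 bp, as at 98.9% of all genes with both. KMT9alpha overlapped an H4K12me1 promoter peak at all 6 genes with the mark, by 590 to 1922 bp, as at 94.3% of all genes with both of these. At Prdx2 and Prdx5 the overlapping peak was the weaker of the H4K12me1 peaks of that gene.

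Inside the genes, away from the promoters, KMT9alpha was nearly absent from the lists. The only such KMT9alpha peak was in an intron of Prdx3 (60867813 to 60868593, score 213.44), with no KMT9beta or H4K12me1 peak over it. KMT9beta and H4K12me1 each had 7 peaks in the gene bodies, at Prdx6, Sod2, Cat and Gpx4 in both cases. This is 0.0816, 0.571 and 0.571 peaks per 10 kb of gene body for KMT9alpha, KMT9beta and H4K12me1, against 0.0819, 0.447 and 0.291 over all protein-coding genes. Counted by gene, 10%, 40% and 40% of the members had such a peak, against 19.8%, 49.5% and 41.0% of all genes, and 4 of the 7 H4K12me1 peaks were in Sod2 alone. Many of these peaks lay in parts of Sod2 and Gpx4 that no transcript annotated as protein-coding reaches. Limited to the span of the coding transcripts, a choice made after seeing the data, KMT9beta kept 3 peaks (Prdx6, Cat and Gpx4) and H4K12me1 2 (Prdx6 and Cat).

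**Figure D4:**
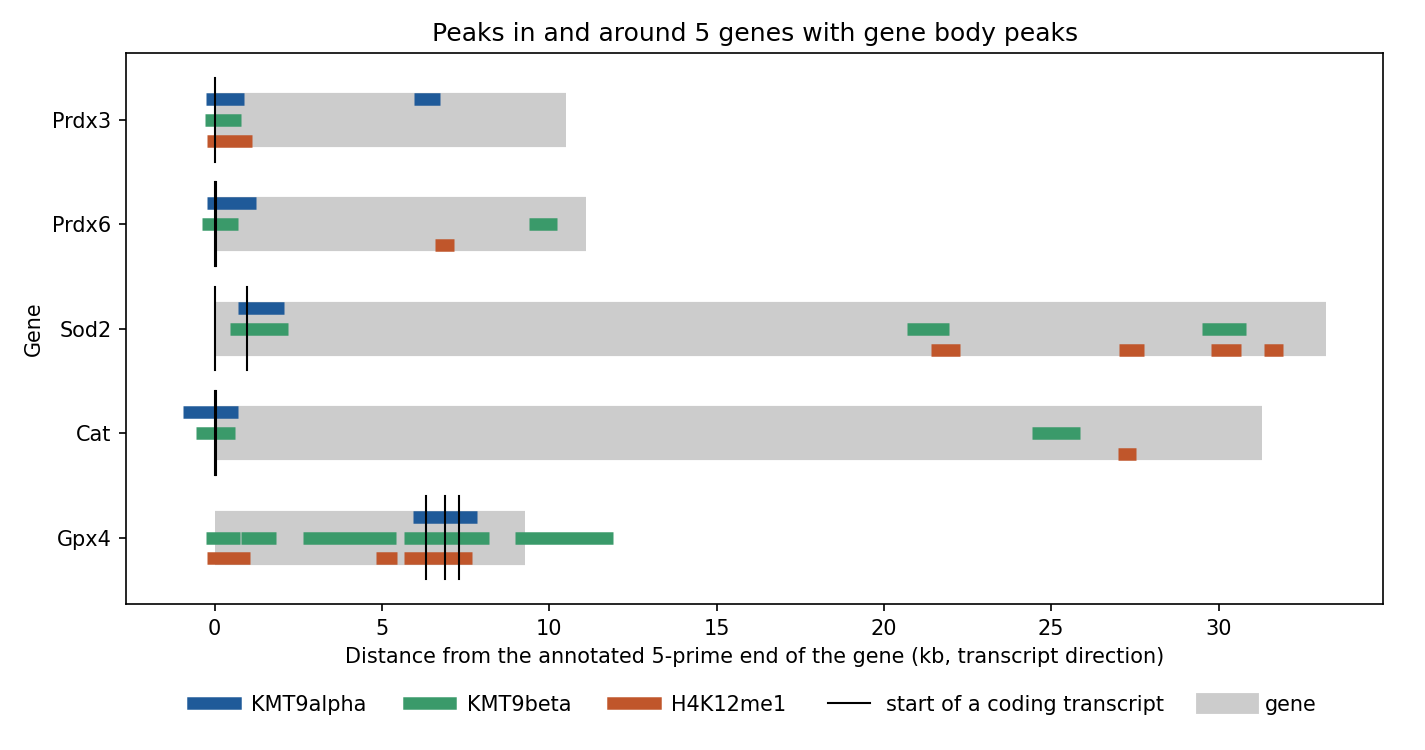
Peaks of the 3 libraries (coloured bars) along the 5 genes with gene body peaks (grey bars), against the distance in kb from the annotated 5′ end of the gene in transcript direction, with coding starts as black lines. KMT9alpha outside promoters appears in Prdx3 alone, and the gene body peaks of Sod2 and the upstream peaks of Gpx4 belong to KMT9beta and H4K12me1.

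The 3 genes with both subunits but no H4K12me1 at the promoter each carried H4K12me1 further inside, as 44.9% of the 3390 genes with this promoter pattern did. At Prdx6 it was a peak of 570 bp over a coding exon (161244064 to 161244633, score 89.83), 6818 bp downstream of the start, and a KMT9beta peak (161240996 to 161241838, score 63.22) lay over the last part of the gene without touching it. At Cat an intronic H4K12me1 peak (103457623 to 103458169, score 83.61) and a KMT9beta peak over a coding exon (103459286 to 103460743, score 155.19) were also separate. At Sod2, 4 H4K12me1 peaks scored 67.06 to 137.28, and the highest (13036625 to 13037515) lay wholly inside a KMT9beta peak (13036342 to 13037665, score 91.91). A further KMT9beta peak (13027527 to 13028781, score 108.39) overlapped H4K12me1 by 520 bp. All of these Sod2 peaks lie beyond 13020134, where the longest coding transcript ends, within a transcript annotated for nonsense-mediated decay.

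Gpx4 has a non-coding transcript that starts at 80047166, upstream of its first coding start at 80053488. That start carried a KMT9beta peak in the lower part of its list (80046909 to 80047931, score 75.84, percentile 39.6). It also carried a strong H4K12me1 peak (80046941 to 80048233, 1293 bp, score 238.41, percentile 96.1), which shared 991 bp with KMT9beta. No KMT9alpha peak was called there, whereas all 3 libraries covered the coding starts of the same gene. The 250 bases before this start (chr10:80046916-80047165, plus strand), of which 225 lay in the H4K12me1 peak, hold a CCAAT box and no GC box. The Gpx4 stretch before the coding start printed above holds both. A KMT9beta peak at the other end of Gpx4 (80056131 to 80059082, score 361.78) runs on into Sbno2.
Gpx4 upstream start: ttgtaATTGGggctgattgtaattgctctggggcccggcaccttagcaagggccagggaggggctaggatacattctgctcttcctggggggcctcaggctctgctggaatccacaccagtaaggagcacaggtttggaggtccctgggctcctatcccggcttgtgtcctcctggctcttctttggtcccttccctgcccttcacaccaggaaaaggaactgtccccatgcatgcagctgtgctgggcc

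Other genes of thiol and peroxide metabolism were taken from a list of 34: thioredoxins and their reductases, sulfiredoxin, sestrins, glutaredoxins, glutathione synthesis, further glutathione peroxidases, Sod3 and the NRF2 regulators and targets. KMT9alpha was called at 26 of 34 promoters (76.5%), KMT9beta at 31 (91.2%), H4K12me1 at 20 (58.8%) and all 3 at 17 (50%). Over all protein-coding genes these shares were 54.2%, 65.1%, 44.9% and 35.5%. The exact binomial interval for KMT9alpha in this list, 58.8% to 89.3%, overlaps that of the 10 enzymes, and the difference was not tested. Thioredoxin (Txn1), which recycles oxidised peroxiredoxins, Nfe2l2, which encodes NRF2, and Keap1, its inhibitor, carried all 3 with KMT9alpha scores of 3100 and KMT9beta scores of 616.78, 406.24 and 389.66. Srxn1, which repairs overoxidised peroxiredoxins, also carried all 3. The glutathione synthesis genes Gclc and Gclm carried both subunits without H4K12me1, as Prdx6, Sod2 and Cat did. Gss, another glutathione synthesis gene of the list, carried all 3. Both subunits without the mark were found at 9 of the 34 genes (26.5%), against 15.5% of all protein-coding genes. Among genes of this list with both subunits, the mark was called at 17 of 26 (65.4%), close to the 69.6% of all genes with both subunits. Gclc, Gclm, Gss and Srxn1 were named after their values were seen. Gpx7 and Gpx8, peroxidases of the endoplasmic reticulum, and the methionine sulfoxide reductase gene Msra had no promoter peak of any library.

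By the percentiles of the highest promoter peaks in the 3 lists, when each of the 10 enzymes was paired with its nearest gene among the other enzymes and the 34-gene list, the closest pairs were Prdx3 with Txn2 (distance 2.27 percentile points), Sod1 with Gsr (2.83) and Prdx5 with Gpx4 (4.14). Prdx3 stood at percentiles 72.3, 85.3 and 75.2 for KMT9alpha, KMT9beta and H4K12me1, and Txn2 at 71.9, 83.1 and 75.2. The likeness rests on 1 library for each antibody and 3 values per gene, and several KMT9alpha scores at 3100 share 1 percentile.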

How the data were processed

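Peak lists from 1 ChIP-seq library each for KMT9alpha, KMT9beta and H4K12me1 were used as deposited. The authors mapped reads to mm10; the labels name STAR and the submitters' processing notes name Bowtie2, without versions. Peak names begin with MACS, per the files. The unit is the score that the authors deposited for each peak. Its definition, like the caller's version, threshold and control, was not given in the sources used here, and scores were ranked only within a list. Peaks on unplaced sequences (81, 124 and 120) were left out.

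The members, lists and settings were chosen with earlier results of these data known. Starts were those of coding transcripts in GENCODE M21 on GRCm38. Gene bodies ran from gene start to end with peaks at promoters left out. All 10 members are named, with genes starting within 1 kb of them; of the 34-gene list, the 3 with all libraries and the highest KMT9alpha score (ties by KMT9beta score) and those without peaks. Likeness was the Euclidean distance over 3 score percentiles, with 0 for no peak. Intervals are exact Clopper-Pearson 95%. With 1 library per antibody no p-value was computed. On simulated data 200 of 200 planted promoter peaks were found, which checks the overlap step only and not peak calling in these libraries. Software was matplotlib 3.10.9, scipy 1.17.1, pandas 2.3.3 and numpy 2.4.6 under Python 3.11.15.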

Additional observations from a re-analysis of the deposited data

How the results depend on the processing

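Other settings were a promoter window of 500 bp or 5 kb, the most 5′ coding start only, peak midpoints in the window, peaks at or above the median score, an equal number of peaks from each list (26146), and all 3 libraries at the same start. Leaving out genes on chromosomes 19 and X was added after seeing the data. Over these, members with all 3 numbered 4 (of 7 genes left) to 6, and each count by library stayed within 1.5 times the value reported. The share of all genes with all 3 moved more, from 22.2% with equal peak numbers (members 50%) to 43.4% with the 5 kb window (members 60%). With the 5 kb window, H4K12me1 was called at 60% of members, close to the 55.0% of all genes. Prdx4 lost its KMT9alpha peak with the most 5′ start only, Prdx5 its KMT9beta peak by midpoint, and Prdx1 its H4K12me1 and Prdx6 its KMT9beta peak with equal peak numbers. With equal peak numbers the redox list had all 3 at 11 genes and the gene bodies held 2 KMT9beta peaks; at or above the median score they held 0 KMT9alpha peaks. With promoters included they held 11, 18 and 16 peaks of KMT9alpha, KMT9beta and H4K12me1, and within coding transcript spans 3 for KMT9beta and 2 for H4K12me1. The depth is unknown, so an uncalled peak is not absence. No paired analysis was possible because each antibody has 1 library and no second condition exists.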
